A study of Homo sapiens with 4 samples.

Results

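The genes described are 8 parts of the IL-1 and Toll-like receptor signalling complex, measured in human bladder cancer cells: the kinases IRAK1, IRAK2, IRAK3 and IRAK4, the ubiquitin ligase TRAF6, the adaptor MYD88 and the partners TOLLIP and PELI1. They were taken by gene name from a deposited table of 60623 genes, where each name had 1 row. No cut-off on a measured value picked them, but they were chosen with earlier results of these data known. All 8 passed the filter on low counts that left 14810 tested genes. RNA was sequenced from T24, an established line grown from a human bladder carcinoma, in 2 libraries of cells with raised miR-146a-5p and 2 libraries of cells given a scramble control. The series' design text says that both agents were transfected and names a mimic of the microRNA, where the sample labels write overexpression; neither gives a dose or a time. All 4 libraries come from the same line. It is not stated if replicates are different cultures, and the p-values then cover only library-to-library spread, possibly technical.

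MYD88, IRAK4 and IRAK2 or IRAK1 assemble through their death domains into a scaffold called the Myddosome when an IL-1 or Toll-like receptor is engaged. IRAK4 then activates IRAK1, which binds TRAF6, and TRAF6 builds ubiquitin chains that recruit the kinases leading to NF-kB and MAP kinases. IRAK1 and TRAF6 are textbook targets of miR-146a-5p, whose own gene is induced by NF-kB, and the loop is known as a brake on inflammatory signalling.

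The sequences shown first are those through which the microRNA can pair with these transcripts. The mature microRNA is from RefSeq (GRCh38.p14), with its seed, bases 2 to 8, in capitals. The 30-base windows lie in 3' UTRs of GENCODE release 29 (GRCh38), using for each gene its longest coding transcript, and are written 5' to 3' on the strand of the transcript, with the bases that match the seed, and the A opposite base 1, in capitals. Sites are named by their distance from the stop codon.
hsa-miR-146a-5p: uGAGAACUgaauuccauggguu
IRAK1 site at 40 bases: atcccccaaatccggaagtcaaAGTTCTCA
IRAK1 site at 56 bases: agtcaaagttctcatggtcagaAGTTCTCA
TRAF6 site at 59 bases: aaaacagtgcctttccttgccctGTTCTCA
TRAF6 site at 473 bases: gagttattgctctagaaagttgAGTTCTCA
TRAF6 site at 538 bases: accataatccttggaaaacttaAGTTCTCA
TRAF6 site at 1272 bases: gatataaaatatcgtggaatctAGTTCTCA
IRAK4 site at 2547 bases: ttagagccactggtgatgagtgAGTTCTCA

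The genes lie, in GRCh38, at chrX:154010500-154019980 (IRAK1, ENSG00000184216, minus strand), chr3:10164865-10243743 (IRAK2, ENSG00000134070, plus), chr12:66188879-66254622 (IRAK3, ENSG00000090376, plus) and chr12:43758944-43789543 (IRAK4, ENSG00000198001, plus). TRAF6 (ENSG00000175104) lies at chr11:36487027-36510272 on the minus strand, MYD88 (ENSG00000172936) at chr3:38138478-38143022 on the plus strand, TOLLIP (ENSG00000078902) at chr11:1274371-1309654 and PELI1 (ENSG00000197329) at chr2:64092652-64144454, both on the minus strand. Of the 8 genes, 3 carried a seed match in the 3' UTR, and none had one in its coding part or 5' UTR. The motifs searched, on the transcript strand, were AGTTCTCA, AGTTCTC without a following A, and GTTCTCA without a preceding A, and each site was counted once. IRAK1 has 2 matches of 8 bases in its last exon, starting 40 and 56 bases after the stop codon, so the window of the site at 56 bases includes the site at 40 bases (windows chrX:154011812-154011841 and chrX:154011796-154011825, minus strand). TRAF6 has 4 matches, 1 of them the shorter form starting 59 bases after the stop codon and 3 of 8 bases starting 473, 538 and 1272 bases after it (windows chr11:36489773-36489802, chr11:36489358-36489387, chr11:36489293-36489322 and chr11:36488559-36488588, minus strand). IRAK4 has 1 match of 8 bases, 2547 bases after the stop codon and 272 bases from the end of the transcript (window chr12:43789240-43789269, plus strand). IRAK2, IRAK3, MYD88, TOLLIP and PELI1 have no match in 3' UTRs of 1515, 6451, 1736, 2667 and 2050 bases. For comparison, 21.01% of the 12345 tested genes with an annotated 3' UTR there have any match, 4.787% have an 8-base match and 4.731% have at least 2 matches. The shorter of the TRAF6 coding transcripts, with a 3' UTR of 665 bases, keeps 2 of the 3 8-base matches. Of the 6 IRAK1 coding transcripts with an annotated 3' UTR, 3 hold both of the IRAK1 matches. Of the 5 such IRAK4 transcripts, 2 hold the IRAK4 match.

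**Figure D1:**
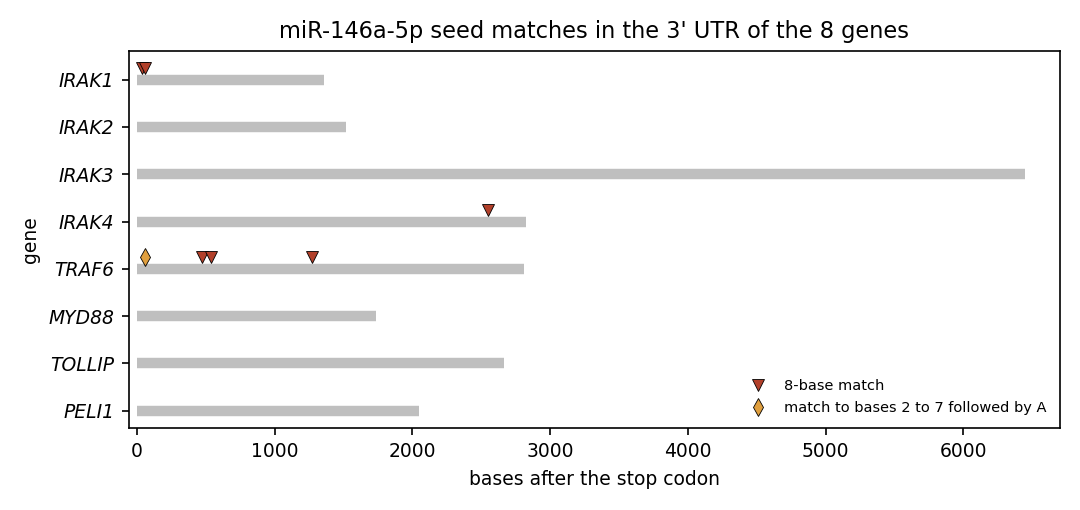
Position of seed matches of miR-146a-5p in the 3' UTR of the longest coding transcript of the 8 genes; the x axis is the distance after the stop codon in bases, grey bars are the 3' UTRs, and the markers stand above the bar of their gene. The 2 IRAK1 matches lie 40 and 56 bases after the stop codon, the 4 TRAF6 matches between 59 and 1272 bases, and the IRAK4 match at 2547 bases.

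The libraries held between 20290055 and 22774090 estimated counts, and CPM below are counts relative to library size, scaled by TMM factors. Scramble replicate 2 stood apart: its log2 CPM correlated at 0.925 with scramble replicate 1 across tested genes, while the miR-146a-5p pair correlated at 0.989. The microRNA itself was not measured in these libraries; its precursor gene MIR146A had 0 counts in all 4. The host transcript MIR3142HG, which contains it, had 179 and 194 counts in miR-146a-5p libraries against 24 and 9 in scramble libraries (DESeq2 log2 fold change 3.58 ± 0.64 SE, adjusted p = 2.71e-05; edgeR adjusted p = 0.959). Keratins KRT7, KRT8 and KRT18 and vimentin were abundant, at 610 to 2705 TPM (abundance per transcript length, as deposited) in miR-146a-5p and 762 to 2587 TPM in scramble libraries, while KRT19 had 17.4 and 15.5 TPM in miR-146a-5p against 35.6 and 41.0 TPM in scramble libraries (DESeq2 log2 fold change -1.31 ± 0.36 SE, adjusted p = 0.0681). EPCAM and GATA3 were at 0.24 to 1.22 TPM in miR-146a-5p and 0.12 to 0.83 TPM in scramble libraries, and the epithelial cadherin CDH1 and the uroplakins UPK1B, UPK2 and UPK3A had 0 to 3 counts in any library. The 5 endothelial markers summed to at most 0.35 TPM and the 7 fibroblast markers to at most 2.74 TPM. The 8 leukocyte markers summed to 11.3 to 14.5 TPM in miR-146a-5p and 11.1 to 13.8 TPM in scramble libraries, most of it CD68, with CD3E at 0 counts.

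IRAK1, the kinase that carries the signal to TRAF6, fell with the microRNA by DESeq2 and was the 1 gene of the 8 with a call. It had 2329 and 2217 estimated counts in miR-146a-5p libraries, against 11155 and 16314 in scramble libraries. On the scale of CPM it averaged 109 ± 0.176 in miR-146a-5p cells and 608 ± 154 in scramble cells (SD, n = 2 each). The groups were far apart. In CPM the scramble libraries differed from each other while the miR-146a-5p libraries did not, but in TPM the miR-146a-5p libraries differed too (64.0 and 49.8). The CPM level with the microRNA was 0.179 of the scramble level, or 82.1% less. Fewer cells with the transcript and less transcript per cell cannot be told apart in such bulk libraries.

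By DESeq2 the log2 fold change of IRAK1 was -2.50 ± 0.35 (SE; adjusted p = 5.03e-09). With edgeR's quasi-likelihood test, which was the main test, it was -2.48 ± 0.24 with an unadjusted p of 0.000362 and an adjusted p of 0.728, past no threshold. The calls therefore depended on the test: edgeR called 0% of the 14810 genes (549 had an unadjusted p under 0.05, or 3.71%: 1.65% lower and 2.05% higher), and DESeq2 called 52 of the 16044 genes it adjusted, or 0.324%, of which 8 fell (0.0499%). Only 9 of the 14810 tested genes had a lower edgeR log2 fold change than IRAK1. Taken against scramble replicate 1 by itself the difference was -2.20, and against scramble replicate 2 by itself -2.72. IRAK1 was called by both tests without scramble replicate 1, in fits that called 54.9% of genes (edgeR) and 38.1% (DESeq2), and without scramble replicate 2, in fits that called 21.7% and 9.64%. Without miR-146a-5p replicate 1 it was not, with an adjusted p of 0.0735 by edgeR, which called 0.0776% of genes, and of 1 by DESeq2, which called 0.00807%. Without miR-146a-5p replicate 2 it was not either, with an adjusted p of 0.106 by edgeR (0.0517% of genes called) and of 1 by DESeq2 (0.00809%). Its log2 fold change in those fits was between -2.47 and -2.50. An exact permutation test of 2 against 2 libraries cannot give a two-sided p under 0.333, so none is quoted for single genes.

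TRAF6, the ubiquitin ligase recruited by IRAK1, was lower in both miR-146a-5p libraries than in both scramble libraries but did not pass either test. It had 213 and 178 estimated counts in miR-146a-5p libraries, against 431 and 291 in scramble libraries. Its CPM were 9.96 and 8.72 with the microRNA and 19.3 and 12.8 with scramble, so the groups did not overlap and the scramble pair was the more spread. The DESeq2 log2 fold change was -0.80 with a 95% interval of -1.65 to 0.04 (adjusted p = 1.00, unadjusted p = 0.0624), and the edgeR adjusted p was 0.970. The interval holds both no change and a fall of more than a log2 unit. The difference was -1.04 with scramble replicate 1 as the only control and -0.45 with replicate 2. With GC and length trends taken out it was -1.07 (edgeR adjusted p = 0.302). Without scramble replicate 2 TRAF6 was called lower by edgeR and by DESeq2, in fits that called 21.7% and 9.64% of genes. Without scramble replicate 1 it was called by edgeR, which then called 54.9% of genes, and not by DESeq2, which called 38.1%.

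Set beside each other, IRAK1 has 2 matches, at 40 and 56 bases, and a DESeq2 log2 fold change of -2.50, called by DESeq2 and not by edgeR. TRAF6 has 4 matches, the nearest at 59 bases, and a DESeq2 value of -0.80 that neither test called. IRAK4 has 1 match, at 2547 bases, and a DESeq2 value of 0.04 that neither test called. A part of site number or position in these values was not tested. Over all tested genes, the median edgeR log2 fold change was 0.02 for the 591 genes with an 8-base match and 0.0033 for the 9751 genes with no match. The 5 genes of the group without a match had edgeR log2 fold changes between -0.33 and 0.78.

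**Figure D2:**
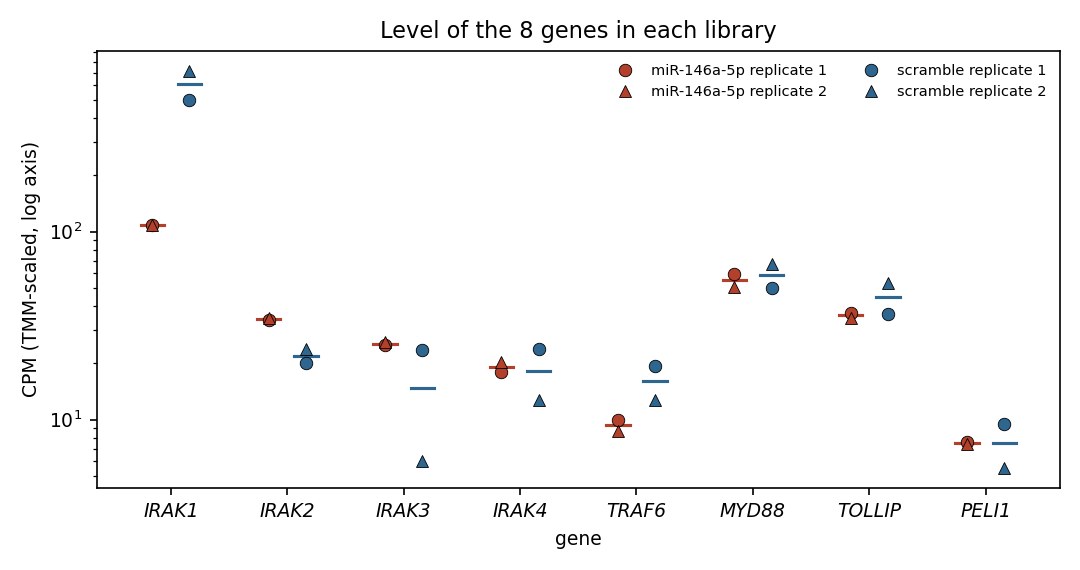
CPM of each gene in each library on a log axis; red marks are miR-146a-5p and blue marks scramble libraries, circles are replicate 1, triangles replicate 2 and bars the mean of each group. IRAK1 stood at 109 CPM in both miR-146a-5p libraries and at 499 and 717 CPM in the scramble libraries, and the blue marks of IRAK3 lay farthest apart.

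IRAK2, a kinase of the Myddosome that sustains signalling after IRAK1, was higher in both miR-146a-5p libraries than in both scramble libraries, without passing. Its estimated counts were 725 and 711 in miR-146a-5p libraries, against 447 and 541 in scramble libraries. It averaged 34.4 ± 0.665 CPM with the microRNA and 21.9 ± 2.67 CPM with scramble (SD, n = 2 each), and the groups did not overlap. The DESeq2 log2 fold change was 0.63 with a 95% interval of 0.0039 to 1.26 (unadjusted p = 0.0486, adjusted p = 1.00). The edgeR log2 fold change was 0.65 ± 0.21 (SE), with an unadjusted p of 0.0333 and an adjusted p of 0.970. It was the member whose value moved least with the scramble library used, at 0.78 against replicate 1 alone and 0.53 against replicate 2 alone. Both tests called it higher without scramble replicate 1, where edgeR called 54.9% and DESeq2 38.1% of all genes, and without scramble replicate 2, where they called 21.7% and 9.64%.

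IRAK3, also called IRAK-M, lacks the full kinase activity of its relatives and is known as an inhibitor of the complex. It had 534 and 528 estimated counts in miR-146a-5p libraries, against 527 and 138 in scramble libraries. Scramble replicate 1 matched the miR-146a-5p libraries, and scramble replicate 2 was low. The groups did not overlap by a narrow margin, at 25.0 and 25.9 CPM with the microRNA and 23.6 and 6.07 CPM with scramble. With scramble replicate 1 as the only control the difference was 0.11, and with replicate 2 it was 2.05. The fitted log2 fold change of 0.75 (DESeq2 95% interval -0.65 to 2.15, adjusted p = 1.00) thus rests on 1 scramble library. Without scramble replicate 1 IRAK3 was called higher by edgeR (adjusted p = 3.07e-36, 54.9% of genes called) and by DESeq2 (adjusted p = 7.03e-13, 38.1% called), and without scramble replicate 2 by neither (0.570 and 0.899).

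IRAK4, the kinase that acts first in the complex, had 383 and 416 estimated counts in miR-146a-5p libraries, against 532 and 289 in scramble libraries. Both miR-146a-5p libraries lay between the scramble libraries. Its CPM averaged 19.1 ± 1.76 with the microRNA and 18.2 ± 7.86 with scramble (SD, n = 2 each), and its sign turned with the scramble library used, at -0.32 against replicate 1 alone and 0.58 against replicate 2 alone. The DESeq2 95% interval was -0.91 to 1.00 around 0.04 (adjusted p = 1.00), so neither a rise nor a fall of nearly a log2 unit falls outside it.

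MYD88, the adaptor that links the receptors to the kinases, had 1268 and 1041 estimated counts in miR-146a-5p libraries, against 1122 and 1532 in scramble libraries. At 55.1 ± 5.85 CPM with the microRNA and 58.8 ± 12.1 CPM with scramble (SD, n = 2 each), the groups overlapped. Its DESeq2 log2 fold change was -0.11 with a 95% interval of -0.80 to 0.58 (adjusted p = 1.00), the narrowest interval after IRAK2. Its sign turned with the scramble library used, at 0.13 with replicate 1 and -0.29 with replicate 2 as the only control.

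TOLLIP, a ubiquitin-binding partner that restrains IRAK1 and helps sort the receptor for degradation, had 794 and 707 estimated counts in miR-146a-5p libraries, against 816 and 1218 in scramble libraries. In CPM the values were 37.1 and 34.6 with the microRNA and 36.5 and 53.5 with scramble, so only scramble replicate 2 stood above the rest. The DESeq2 log2 fold change was -0.34 with a 95% interval of -1.07 to 0.39 (adjusted p = 1.00), and the difference was -0.03 with scramble replicate 1 and -0.58 with replicate 2 as the only control. Without scramble replicate 1 it was called lower by edgeR (adjusted p = 1.46e-07) and by DESeq2 (adjusted p = 0.00428), in the fits that called 54.9% and 38.1% of genes.

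PELI1, a Pellino ubiquitin ligase that modifies IRAK1, had 163 and 151 estimated counts in miR-146a-5p libraries, against 213 and 126 in scramble libraries. As with IRAK4, the miR-146a-5p libraries lay between the scramble libraries, and the sign depended on which was used (-0.34 against replicate 1 alone and 0.43 against replicate 2 alone). The DESeq2 95% interval was -0.98 to 0.93 (adjusted p = 1.00).

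Counted together, DESeq2 called 1 of the 8 genes lower and 0 higher, against 0.0499% and 0.274% of all genes, and edgeR called 0, against 0%. The 8 genes were chosen with earlier results of these data known, so these shares are no test of them. Without scramble replicate 1, edgeR called 7 of the 8 (all but PELI1) and 54.9% of all genes, and DESeq2 called 4 (IRAK1, IRAK2, IRAK3 and TOLLIP) and 38.1%. Without scramble replicate 2, both called 3 (IRAK1, IRAK2 and TRAF6), beside 21.7% and 9.64% of all genes. With 4 libraries the median edgeR log2 fold change of the 8 was -0.05, against -0.0014 for all tested genes. The miR-146a-5p libraries lay below both scramble libraries in IRAK1 and TRAF6, above both in IRAK2 and IRAK3, and overlapped with them in the other 4. Such a separation held for 36.0% of tested genes, 18.0% in each direction. The authors' deposited table lists the same call for IRAK1 (log2 fold change -2.50, adjusted p = 5.28e-09) and lists the other 7 as not significant.

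**Figure D3:**
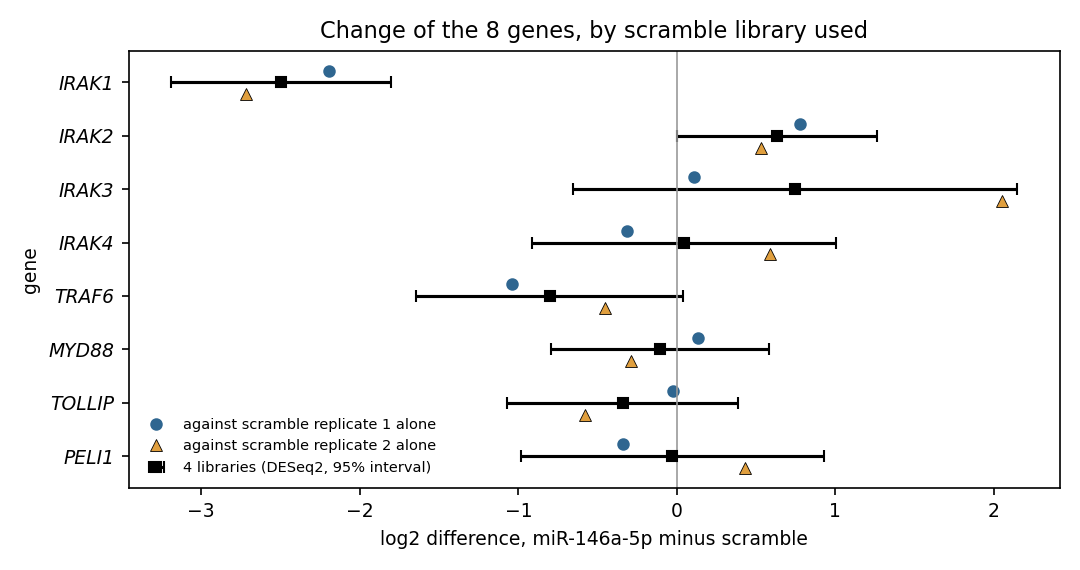
Log2 difference of the 8 genes, miR-146a-5p minus scramble; black squares are the DESeq2 fit to 4 libraries with its 95% interval, blue circles the difference with scramble replicate 1 as the only control and yellow triangles that with replicate 2. All 3 marks of IRAK1 lie between -2.20 and -2.72, while those of IRAK3 run from 0.11 to 2.05 and those of IRAK4 and PELI1 stand on both sides of 0.

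The levels per length show how far IRAK1 exceeds its partners. IRAK1 had 64.0 and 49.8 TPM in miR-146a-5p libraries, against 273 and 314 TPM in scramble libraries. The summed TPM of the other 7 genes was 75.3 and 73.2 in miR-146a-5p libraries, against 73.4 and 76.7 in scramble libraries, so that the groups overlapped. IRAK1 accordingly made up 45.9% and 40.5% of the summed TPM of the 8 genes with the microRNA, against 78.8% and 80.4% with scramble. Within the IRAK family its share was 73.1% and 66.1% with the microRNA and 92.6% and 95.8% with scramble. IRAK2 took 14.4% and 17.6% of the family with the microRNA and 2.65% and 2.50% with scramble. The ratio of IRAK1 to MYD88 was 2.23 and 1.91 in miR-146a-5p libraries, against 10.4 and 9.57 in scramble libraries, and that of IRAK1 to IRAK2 was 5.09 and 3.75, against 35.0 and 38.3. In both ratios the groups did not overlap, and IRAK1 was still the most abundant member in each library.

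**Figure D4:**
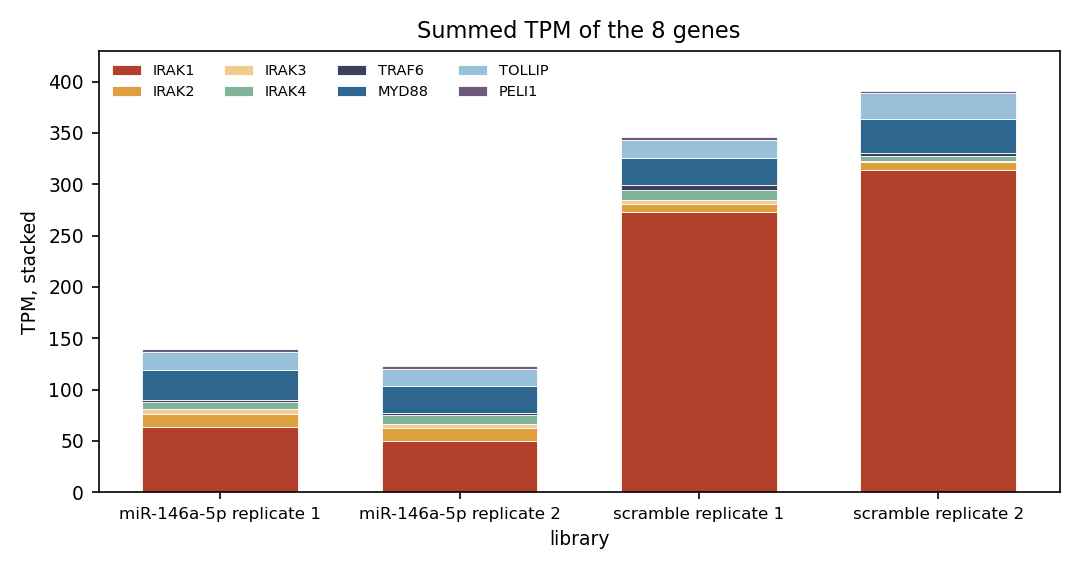
Summed TPM of the 8 genes in each library, stacked by gene, with IRAK1 at the base. The stacks reached 139 and 123 TPM in miR-146a-5p libraries, against 346 and 390 TPM in scramble libraries, and IRAK1 made up nearly all of the difference.

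In miR-146a-5p cells the order of mean TPM was IRAK1 (56.9 ± 10.1), MYD88 (27.3 ± 1.85), TOLLIP (17.2 ± 0.573), IRAK2 (12.9 ± 0.481), IRAK4 (7.54 ± 1.15), IRAK3 (4.07 ± 0.184), PELI1 (2.69 ± 0.149) and TRAF6 (2.48 ± 0.410; SD, n = 2). The ranges of PELI1 and TRAF6 overlapped there, and those of the other neighbours in the order did not. In scramble cells it was IRAK1 (293 ± 28.9), MYD88 (29.5 ± 4.66), TOLLIP (21.1 ± 5.37), IRAK2 (8 ± 0.283), IRAK4 (7.56 ± 4.07), TRAF6 (3.91 ± 0.919), PELI1 (2.72 ± 0.976) and IRAK3 (2.25 ± 2.02). There the neighbours IRAK2 and IRAK4, TRAF6 and PELI1, and PELI1 and IRAK3 were not distinct. By mean, the order differed at its low end only, where TRAF6 stood last with the microRNA and IRAK3 last with scramble. Those places are not resolved, since the scramble ranges of TRAF6, PELI1 and IRAK3 overlapped. In scramble replicate 1 IRAK3, at 3.68 TPM, stood above PELI1, at 3.41 TPM. There IRAK4, at 10.4 TPM, also stood above IRAK2, at 7.80 TPM. IRAK1 exceeded 86.3% and 82.3% of tested genes in TPM in miR-146a-5p libraries, against 97.2% and 97.4% in scramble libraries.

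The sign of the difference between the scramble libraries followed the base composition of the transcripts, in these genes as in the medians of all. Its size did not follow GC content among the GC-poor members, where PELI1, with the lowest GC content, differed less than IRAK3. The 4 members with over 50% GC were higher in scramble replicate 2 than in replicate 1: TOLLIP by 0.55, IRAK1 by 0.52, MYD88 by 0.42 and IRAK2 by 0.25 on the log2 scale, at GC contents of 57.5%, 63.0%, 51.9% and 51.9%. The 4 with under 50% GC were lower there, with differences of -0.59 for TRAF6, -0.77 for PELI1, -0.90 for IRAK4 and -1.94 for IRAK3, at 42.0%, 40.7%, 42.1% and 41.3% GC. Over all tested genes the median difference was -1.53 in the GC quintile with the lowest values and 0.52 in the highest, while that between the miR-146a-5p libraries was 0.08 and -0.06. The median log2 fold change of miR-146a-5p against scramble was 0.32 in the lowest quintile and -0.21 in the highest, which holds IRAK1. The part of GC content in the members' fold changes was not tested beyond the fit with GC and length offsets, in which IRAK1 stood at -2.30 (edgeR adjusted p = 0.132), IRAK2 at 0.70 (0.268), IRAK3 at 0.62 (0.463) and IRAK4 at -0.16 (0.634). PELI1 moved most, to -0.36 (0.518), TOLLIP stood at -0.19 (0.576) and MYD88 at -0.04 (0.907).

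**Figure D5:**
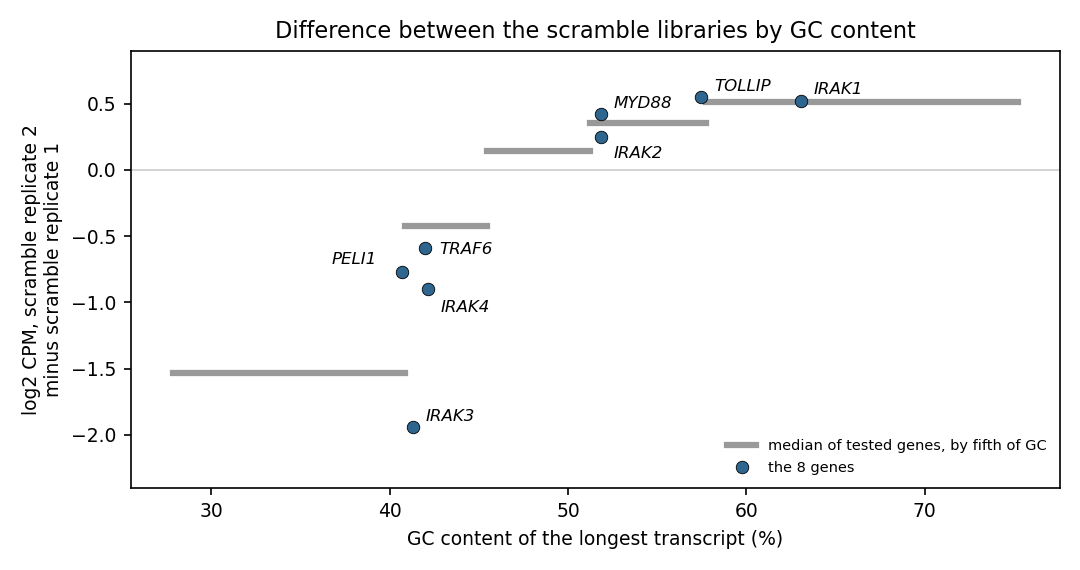
Difference in log2 CPM between scramble replicate 2 and scramble replicate 1 against the GC content of the longest annotated transcript; blue points are the 8 genes and grey bars the median of tested genes in each quintile of GC content. The 4 GC-rich genes lie above 0 and the 4 GC-poor genes below, and IRAK3, at -1.94, lies lower than the median of every quintile.

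Above the complex, 12 of 19 listed IL-1 and Toll-like receptors and co-receptors were tested, and 0 were called by either test. Over all genes DESeq2 called 0.324% and edgeR 0%, so 0 calls in lists this short say little. The median log2 fold change of the tested receptors and co-receptors was 0.45, against -0.0014 for all tested genes. It was -0.03 with scramble replicate 1 and 0.95 with replicate 2 as the only control. The ligand-binding receptor IL1R1 had 112 and 117 counts in miR-146a-5p libraries, against 95 and 93 in scramble libraries. Its partner chain IL1RAP had 847 and 754, against 917 and 301. TLR5, TLR7, TLR8 and TLR9 had at most 2 counts in any library, and the members with the smallest p were TLR1 (12 counts in each miR-146a-5p library, against 6 and 5) and IL1RL1, the IL-33 receptor (46 and 44, against 35 and 18). The 4 other adaptors with the same receptor-binding fold were tested and not called, with a median of -0.15; SARM1 had 408 and 368 counts with the microRNA, against 409 and 613, and TICAM1, the adaptor of TLR3, had 291 and 280, against 287 and 394.

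Below it, the 19 tested genes of the TRAF6 ubiquitin and TAK1 arm had a median of 0.10. Either test called 0 of the 19, near the share over all genes (0.324% by DESeq2 and 0% by edgeR). Those with the smallest p were SQSTM1, a ubiquitin-binding scaffold (251 and 237 CPM with the microRNA, against 332 and 467 with scramble), and ECSIT (16.7 and 15.9 CPM, against 22.4 and 25.3). In both the groups did not overlap, as in 36.0% of all tested genes, and the edgeR adjusted p was 0.970. Within the list the miR-146a-5p libraries lay above both scramble libraries in 3 genes, below both in 5, and overlapped with them in 11. Of 13 tested brakes on the receptor complex, DESeq2 called 1 higher, 0 lower and 12 not, against 0.274% of genes called higher over all. The list was chosen with earlier results of these data known, so that share is no test of it. The gene called was TNFAIP3, the enzyme A20 that removes ubiquitin chains built by TRAF6. TNFAIP3 had 50.3 and 52.6 CPM in miR-146a-5p libraries, against 19.7 and 22.2 in scramble libraries (DESeq2 log2 fold change 1.28 ± 0.31 SE, adjusted p = 0.0152; edgeR adjusted p = 0.959).

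The listed output genes of NF-kB, the transcription factor at the end of this pathway, rose in part: DESeq2 called 9 of 20 tested members higher (0.274% of all genes) and 0 lower (0.0499%), 11 did not pass, and edgeR called 0. In 15 of the 20, against 18.0% of all tested genes, both miR-146a-5p libraries lay above both scramble libraries. The median log2 fold change was 1.60 (1.21 with scramble replicate 1 and 1.82 with replicate 2 as the only control). The list was chosen with earlier results of these data known, so these shares are no test of it. The members with the smallest adjusted p were CSF2, CXCL1, CXCL8 and NFKBIZ. NFKBIZ, an inducible nuclear partner of NF-kB, had 80.0 and 79.9 CPM in miR-146a-5p libraries, against 17.3 and 14.3 in scramble libraries (DESeq2 log2 fold change 2.32 ± 0.33 SE, adjusted p = 6.16e-09). IL1B, a ligand that signals through the IRAK kinases, had 4561 and 4167 counts, against 1722 and 2054. Among the listed subunit genes, NFKB1, RELB and REL overlapped between groups, with edgeR log2 fold changes of 0.10, 0.36 and 0.21. In NFKB2, at 0.31, the miR-146a-5p libraries lay above both scramble libraries.

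Among 9409 genes with a mean of at least 10 CPM, those whose profile over the 4 libraries was closest to that of IRAK1 were TIMM17B, CARD10, LINP1, HMOX1 and SH2D5, by the Euclidean distance between log2 CPM profiles centred on their mean (0.81, 0.94, 1.02, 1.12 and 1.18). All 5 were lower with the microRNA than in both scramble libraries, and higher in scramble replicate 2 than in replicate 1, as IRAK1 was. That likeness follows from the way the 5 were picked and is no separate result. TIMM17B had 11.03 and 9.90 CPM with the microRNA, against 26.8 and 41.2 with scramble, and CARD10 had 25.9 and 29.4 CPM, against 64.0 and 101. Their log2 fold changes, between -1.35 and -1.70 by edgeR, were smaller in size than that of IRAK1. TIMM17B and CARD10 hold 1 and 2 seed matches in the 3' UTR and HMOX1 and SH2D5 hold 0, while LINP1 is noncoding.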

How the data were processed

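RNA from 4 T24 libraries was measured by sequencing; groups and replicate numbers follow the labels. Per the labels' protocols, an Illumina TruSeq kit was used on total RNA; whether counting used strand is not stated. Tools listed, without roles, in the submitters' processing notes are HISAT2 2.0.1, HTSeq 0.6.1, cutadapt 1.9.1 and DESeq2, with the build hg19. The authors deposited an estimated count and a TPM per gene and library, a mean TPM per group, and their own comparison: a fold change (a ratio), its log2 value, a p-value and an adjusted p-value, per the file headers. Of count values above 0, 31.9% were not whole; the tool that made them so is not stated.

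Estimated counts were rounded to whole numbers. The main test was edgeR 4.0.16 (R 4.3.3), quasi-likelihood, TMM factors, filterByExpr (minimum count 10, minimum total 15), group as the only term, two-sided, Benjamini-Hochberg adjustment over all tested genes and a threshold of 0.05. DESeq2 1.42.0 with default filtering was run on all 60623 genes; its intervals are Wald intervals. Standard errors of edgeR values come from the F statistic. Log2 CPM used a prior count of 2. Alternatives were limma 3.58.1 (voom, and log2 of TPM plus 1 or 0.1 for genes with a mean of at least 1 TPM), other scalings, no filter, a replicate block, GC and length offsets, and leaving out each library. Scripts were tested on simulated data. Neither pair of libraries was 1 library deposited in duplicate: their counts gave chi-squares of 6.89 (miR-146a-5p) and 175 (scramble) per degree of freedom. Depth limits precision at low counts, and 2 libraries per group limit it more.

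Coordinates, GC content and seed matches are from GENCODE release 29 (GRCh38), in which 58457 of the 60623 identifiers were found. The members, lists and naming rule (all 8 members; per list up to 4 called genes, or the 2 with the smallest p; the 5 genes closest to IRAK1) were chosen with earlier results of these data known. Because edgeR called no gene, the naming rule used DESeq2's calls. IL1R1, IL1RAP, IL1B, NFKB1, NFKB2, REL and RELB were named outside the rule, after their values were seen. The value of 1 leukocyte marker is not reported here.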

Additional observations from a re-analysis of the deposited data

How the results depend on the processing

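IRAK1 was lower in every fit run. Its log2 fold change was -2.50 by DESeq2 and -2.48 by DESeq2 with the replicate block; with 1 library left out it was -2.72 to -2.19 by edgeR and -2.73 to -2.20 by DESeq2. The DESeq2 fits with the block or without a library, and the crossed block, were chosen after seeing the data. Over the edgeR and limma alternatives its adjusted p was 7.00e-233 to 0.875, the smallest with a lone scramble library, whose spread is taken from the other group. The number of genes called, 0 by edgeR, was 52 by DESeq2 and 1 by limma on log2(TPM + 0.1). With 1 library left out it was 8 to 8421 by edgeR and 2, 2, 1107 and 5349 by DESeq2. No label ties equal replicate numbers to a shared culture or day, so no block entered the main test. With the replicate block edgeR called 5 genes and DESeq2 10, and IRAK1 had an edgeR adjusted p of 0.0573. Same-numbered libraries deviated from their group means with a correlation of -0.145; crossing the numbers gave 0 calls. RLE and upper-quartile scaling moved the median of all genes by -0.0149 and -0.0526 and turned no member's sign. Members near 0 turned. PELI1, at -0.0048 in the main fit, kept its sign with GC and length offsets (-0.36). It was at 0.049 by voom, 0.045 with the replicate block (0.027 by DESeq2) and 0.011 and 0.025 by limma on TPM. With 1 library left out it was at -0.33 to 0.44 by edgeR (0.43 by DESeq2 without scramble replicate 1). IRAK4 was at -0.16 with GC and length offsets and -0.30 to 0.59 with 1 library left out (by DESeq2 -0.064 without miR-146a-5p replicate 2 and -0.31 without scramble replicate 2). MYD88 was at -0.29 to 0.15 with 1 library left out (0.14 by DESeq2 without scramble replicate 2). List medians that turned were -0.033 for receptors, 0.066 for adaptors and -0.017 for the TRAF6 arm with scramble replicate 1 as the only control, and -0.026 for brakes with replicate 2. The cause was not tested. Counting any coding transcript left 3 members with a seed match.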

Other observations

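The deposited TPM imply a transcript length for each gene and library, since an estimated count divided by TPM is proportional to it; the scale was set on 216 genes with 1 annotated transcript. For TRAF6 the implied length was 4596 and 5215 bases in miR-146a-5p libraries, against 5686 and 4661 in scramble libraries. The deposited length is 2558 bases, that of the shorter TRAF6 coding transcript in GENCODE release 29, and the longer has 4627. The values of 5215, 5686 and 4661 exceed that of the longer, which was the one searched for seed matches, and the reason was not tested. For IRAK1 the implied length was 2176 and 2860 bases, against 2458 and 2714. The groups overlapped in both genes. IRAK2, with 1 annotated transcript, was at 3440 to 3447 bases in all 4 libraries. A single transcript gives such a steady value by construction, so it is no check of the other genes.

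Genes that overlap a member, or start within 1 kb of it on the other strand, had 0 to 16 counts per library, apart from PUS7L. PUS7L starts beside IRAK4 and had 940 and 998 counts in miR-146a-5p libraries, against 1359 and 159 in scramble libraries; it has no exon in common with IRAK4. Like IRAK4 it was low in scramble replicate 2.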
